A study of Mus musculus with 965 samples.

Results

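The clustered protocadherins were examined in single cells of mouse embryoid bodies (EBs), the 3-dimensional aggregates that embryonic stem cells form without leukemia inhibitory factor. Members were all rows of the count table whose symbol named an isoform of the Pcdha, Pcdhb or Pcdhg cluster, which gave 52 of the 36849 genes in the table. They were 8 alpha isoforms, the 2 alpha C-type isoforms, 21 beta genes, 11 gamma-A isoforms, 7 gamma-B isoforms and the 3 gamma C-type isoforms. The annotation lists 57 such symbols. Pcdha1, Pcdha4, Pcdha5, Pcdhb1 and Pcdhga10 were not analysed here, and the row Pcdha11 joins a pair of gene IDs that carry that symbol.

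Clustered protocadherins are cell-surface recognition molecules, best known in neurons, where the mix of isoforms that a cell displays lets it tell its own neurites from those of other cells. The genes lie in tandem. Each alpha or gamma isoform is made from its own variable exon, which has its own promoter and is spliced to constant exons shared by the whole cluster, while each beta gene is a single exon. In neurons most isoforms are chosen at random from cell to cell, through promoter DNA methylation and looping by CTCF and cohesin, whereas the C-type isoforms are made more uniformly. DNMT3B is known to methylate these promoters in the early mouse embryo, and its loss is known to raise the number of isoforms per neuron.

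The study compared 3AKO cells (homozygous Dnmt3a knockout, clones 3A2 and 3A38), 3BKO cells (homozygous Dnmt3b knockout, clones 3B126 and 3B77) and WT cells at days 3, 6 and 8 of EB culture. All were derived from E14 mouse embryonic stem cells, the EBs of a clone and time point were pooled before live cells were sorted into plates, and the sources used here do not name the deleted exons. The 965 cells were 69, 70, 73, 79 and 74 cells of 3A2, 3A38, 3B126, 3B77 and WT at day 3, 80, 72, 58, 71 and 67 cells in the same order at day 6, and 72, 51, 40 and 89 cells of 3A38, 3B126, 3B77 and WT at day 8. Day 8 cells of 3A2 were not analysed here. Each clone and day was 1 plate, except WT at day 8, which was plates C343 (21 cells) and C344 (68 cells). WT was 1 line, so that no comparison with WT had replicate WT cultures. Batch 1 held both 3AKO clones, batch 2 held 3B126 and WT, and batch 3 held 3B77, so that 3B126 was the only knockout clone in the batch of WT, and otherwise batch and genotype cannot be told apart. Nothing says that a clone was cultured more than once, so that the spread between clones is the only replicate error.

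The labels of a pair of libraries at day 8 are in doubt. Y-linked transcripts (Ddx3y, Eif2s3y, Kdm5d or Uty) were read in 0 of the 150 cells that 3B77 gave at days 3 and 6, but in 14 of the 40 cells labelled 3B77 at day 8. They were found in 70 of 141 WT cells at days 3 and 6 and in 4 of 21 cells of WT plate C343, but in 0 of 68 cells of WT plate C344. Directions for 3B77 and WT at day 8 depend on these labels, and the main values are given with and without both. Summed per clone and day, the libraries held 9810248 to 44529830 reads. The median cell held 152700 to 500200 reads across the 14 libraries, and the median number of detected genes ranged between 3647 and 7203.

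Counting limits what could be seen. The members lie on chromosome 18 (GRCm38, plus strand), with the alpha cluster at 36930184 to 37187661, the beta genes at 37264938 to 37524479 and the gamma cluster at 37661793 to 37841873. Reads were assigned by gene name and reads matching more than 1 gene are lost by default in such counting, so that the exon bases of a member that no other gene name shares are the ones that could be counted. These were 100% of the exon bases of the median beta gene (3714 bases) but 45.1% of the median alpha isoform (2472 bases) and 53.75% of the median gamma-A isoform (2567 bases). Under that default the shared constant exons of alpha and gamma would give no isoform reads, which no source used here states, and numbers of alpha, beta and gamma isoforms are not on 1 scale. Pcdhb12 lies partly under an antisense transcript and Pcdhb21 and Pcdhb22 overlap, and no source used here says whether counting used strand. Pcdha3, Pcdha6, Pcdha8, Pcdhac1, Pcdhac2, Pcdhb10 and Pcdhb15 had reads in batches 1 and 3 only, so that a 0 for them in 3B126 and WT may be a row missing from that batch.

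At least 1 read of any member was found in 430 cells (44.6%). In 249 cells 1 member was read and in 181 cells at least 2, among them 42 cells with 3, 22 with 4, 9 with 5, 5 with 6 and 2 with 7. The remaining 535 cells had no read of any member. Detection lay close to its floor: the median member was read in 12.5 cells, with a median over members of 3 reads in a cell where it was found. A member that was not read in a cell can therefore be absent or missed. Gamma isoforms were read in 332 cells, beta genes in 168 cells and alpha isoforms in 31 cells. In reads the order differed, because beta genes held 70.8% of the 13981 reads of all members and gamma isoforms 27.1%. A gamma-A isoform gave a median of 2 reads in a positive cell over the 11 isoforms, and a beta gene a median of 6 over the 21 genes.

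Among gamma-A and gamma-B isoforms, Pcdhga2 was found in 50 cells, Pcdhga5 in 36, Pcdhga12 in 35 and Pcdhga1 in 34. Each of them is a surface recognition isoform with its own variable exon and promoter. Pcdhga2 was read in 3, 0, 1, 6 and 0 cells of 3A2, 3A38, 3B126, 3B77 and WT at day 3, in 4, 6, 2, 11 and 10 cells of the same clones at day 6, and in 0, 2, 2 and 3 cells of 3A38, 3B126, 3B77 and WT at day 8. It was thus most frequent in 3B77 and WT at day 6 and was not seen in WT at day 3. Pcdhga1 differed from it in time. It was read in 3, 3, 5, 6 and 0 cells at day 3, in 3, 3, 1, 5 and 0 cells at day 6, and in 0, 0, 0 and 5 cells at day 8, where all 5 came from plate C344. Every knockout clone thus had Pcdhga1 cells at days 3 and 6, when no WT cell had a read of it. The 0 of 74 and 0 of 67 WT cells allow shares of up to 4.05% and 4.48%, while 3B126 at day 6 had 1 of 58 cells. Absence from WT is thus not shown. Pcdhga12 was read in 8 of 69 cells of 3A2 at day 3, against 0 of 74 WT cells. The other 3AKO clone, 3A38, had 0 of 70 cells at that day, and 3B126 and 3B77 had 2 and 3 cells. Pcdhga5 had 6 positive cells among all clones of day 3, 21 among those of day 6 and 9 among those of day 8.

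Among beta genes, Pcdhb22 was found in 44 cells, Pcdhb6 in 26, Pcdhb21 in 23 and Pcdhb16 in 21. Pcdhb22 had 4 positive cells in the day 3 libraries, 25 in the day 6 libraries and 15 in the day 8 libraries, and its largest group was 15 of 72 cells of 3A38 at day 6. Pcdhb6 was read in 9 of 72 cells of 3A38 and 6 of 51 cells of 3B126 at day 8, against 0 of 89 WT cells, which allows a WT share of up to 3.37%. Of these WT cells 68 came from plate C344, whose label is in doubt. The 0 of 21 cells on plate C343 alone allows up to 14.29%. A lower share in WT is thus not shown without plate C344. Per kilobase of countable exon, Pcdhb6 also held the most reads of any member (561), followed by Pcdhb12 (453.5), Pcdhb7 (360.5) and Pcdhga2 (271). These sums rest on few cells. A single cell held 812 of the 2107 reads of Pcdhb6, 3 cells held all 502 reads of Pcdhb12, and 1 cell held 170 of the 180 reads of Pcdhb15. Within the beta cluster the number of positive cells went with position along the cluster (Spearman rho = 0.52 over 21 genes) and with the number of countable bases (rho = 0.63). Among gamma-A and gamma-B isoforms the relation to position ran the other way (rho = −0.41 over 11 isoforms and −0.13 over 7), with rho = 0.37 and 0.47 for countable bases. All are descriptions across genes of the same cells, and genes are not independent replicates.

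Alpha isoforms were rare. Pcdha7 was found in 5 cells and Pcdha8 in 4, and Pcdha2, Pcdha6, Pcdha9, Pcdha11 and Pcdha12 in 3 each. Pcdha7 was read in 2 cells of 3A38, 1 of 3B77 and 2 of WT, all at day 6. The C-type isoforms, which mature neurons make more uniformly than the others, were each read in few cells. Pcdhgc3 was found in 31 cells, Pcdhgc4 in 17, Pcdhgc5 and Pcdhac2 in 7 each and Pcdhac1 in 2. The median gamma-A isoform was read in 29 cells and the median gamma-B isoform in 13, and Pcdhac2 was the alpha member read in most cells. Pcdhgc3 was concentrated at day 6, with 8 of 72 cells of 3A38 and 11 of 71 cells of 3B77, against 1 of 67 WT cells. At day 6 it was read in 1 cell each of 3A2 and 3B126. The C-type gamma isoforms together were read in 53 cells, and Pcdhac1 and Pcdhac2 together in 9.

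**Figure D1:**
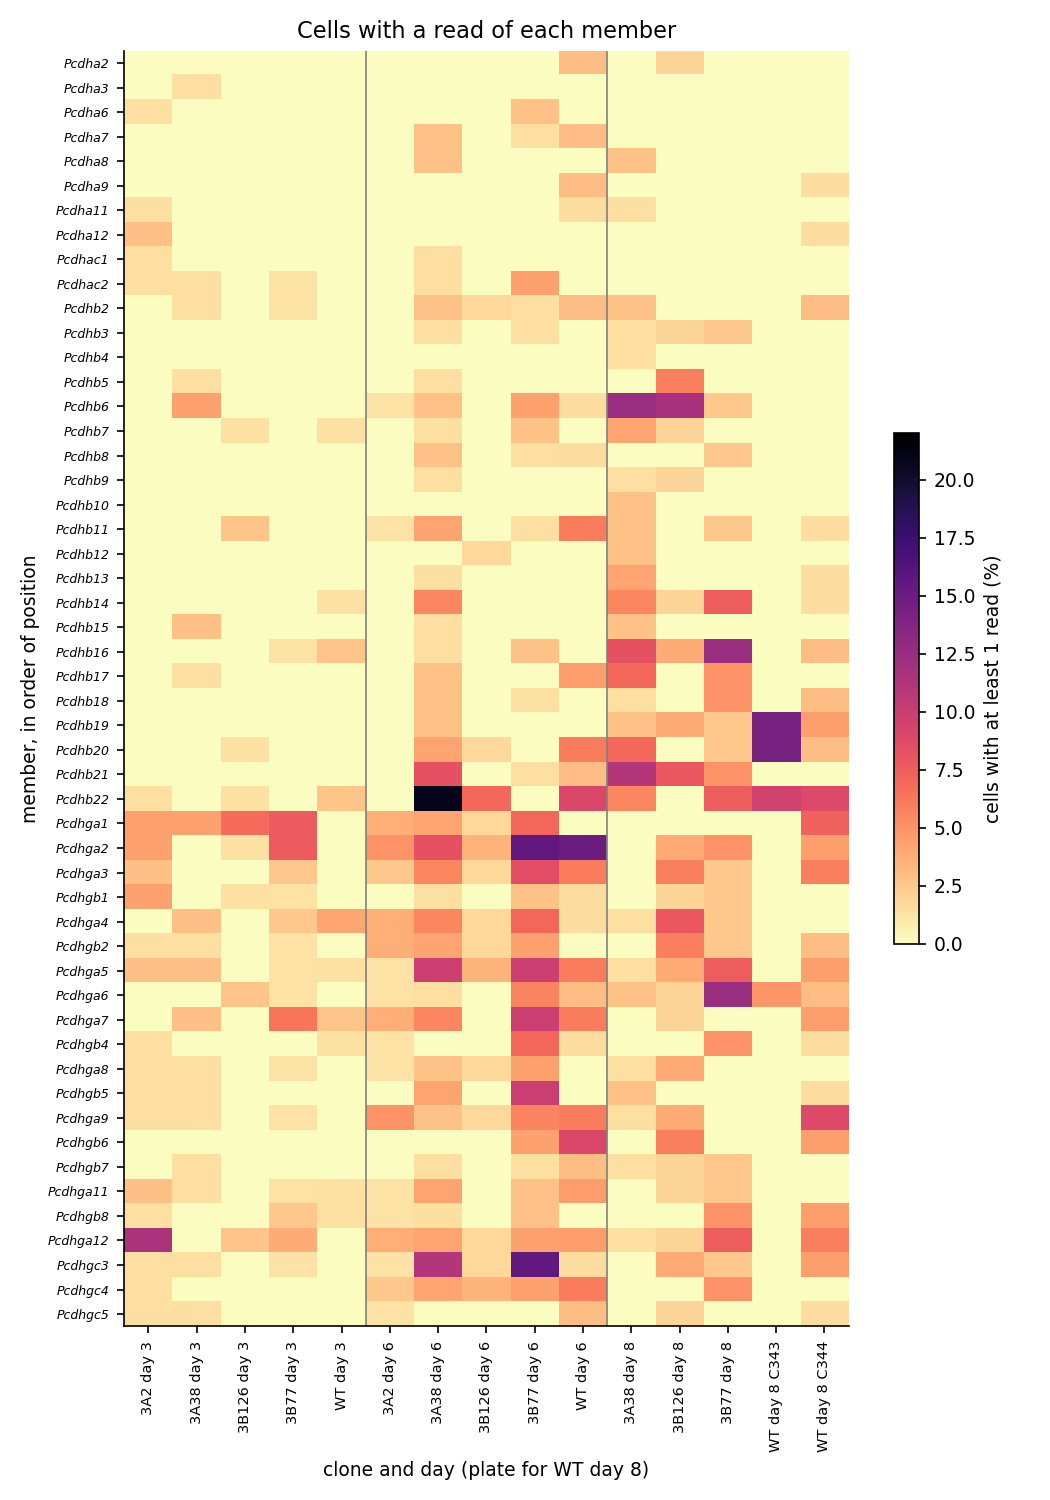
Percent of cells with at least 1 read (colour) of each of the 52 members (rows, in order along the chromosome) in each clone and day (columns, knockout clones left of WT within a day, with both plates of WT day 8). Gamma isoforms in the lower rows were read at all 3 days, whereas beta genes in the middle rows were read mostly at days 6 and 8, with Pcdhb22 in 15 of 72 cells of 3A38 at day 6.

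The share of positive cells differed between clones of 1 genotype as much as between genotypes. At day 3 it was 37.7% in 3A2, 27.1% in 3A38, 17.8% in 3B126, 39.2% in 3B77 and 18.9% in WT. The 95% exact intervals of the last 3 were 9.84 to 28.5%, 28.4 to 50.9% and 10.7 to 29.7%. They cover counting error only, since reads amplified by PCR without molecular identifiers are not independent molecules and cells of a plate share their culture. At day 6 the share was 32.5% in 3A2, 62.5% in 3A38, 36.2% in 3B126, 80.3% in 3B77 and 68.7% in WT. Both genotypes thus had 1 clone below WT and 1 clone close to or above it. At day 8 it was 52.8% in 3A38, 52.9% in 3B126, 62.5% in 3B77 and 47.2% in WT, with 33.3% on WT plate C343 and 51.5% on C344.

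**Figure D2:**
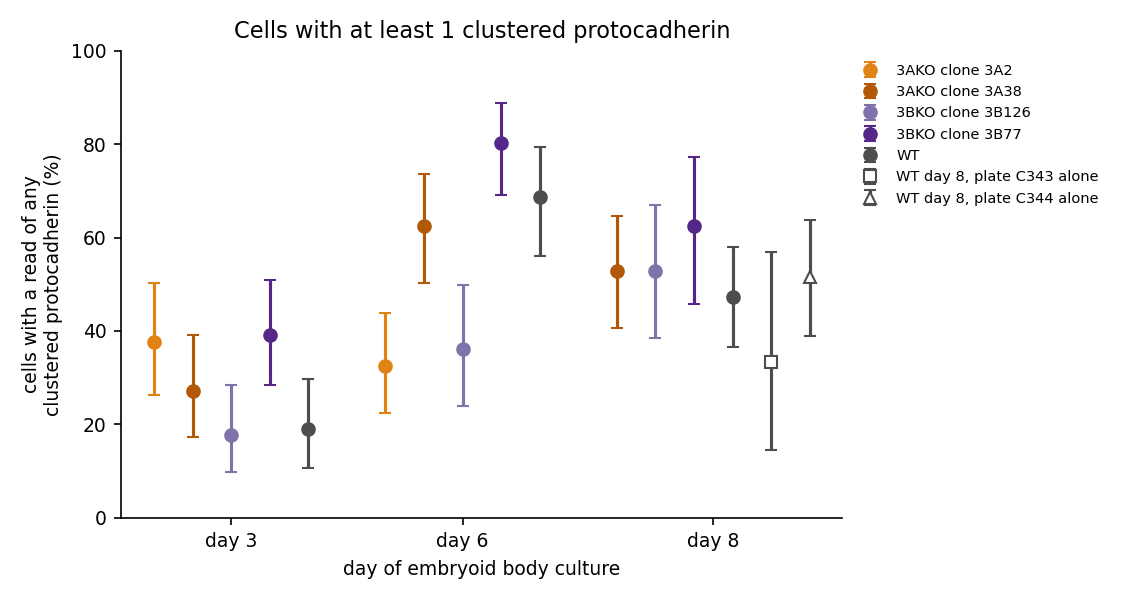
Percent of cells with at least 1 read of any clustered protocadherin (y axis) by clone and day (x axis, days 3, 6 and 8), with exact 95% intervals of counting error as bars and open symbols for each plate of WT at day 8. At day 6 clones 3A2 (32.5%) and 3B126 (36.2%) lay below clones 3A38 (62.5%) and 3B77 (80.3%) and WT (68.7%).

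Each cell was thinned to 50000 reads to compare the number of isoforms per cell at 1 depth. At day 3 cells of 3A2, 3A38, 3B126, 3B77 and WT then held a mean of 0.261, 0.20, 0.137, 0.279 and 0.0676 isoforms (unthinned 0.565, 0.386, 0.219, 0.468 and 0.203). Every knockout clone lay above WT at that day, by a mean of 0.16 for the 3AKO clones and 0.14 for the 3BKO clones. Within batch 2 alone, 3B126 and WT lay close together without thinning, at 0.219 and 0.203, and also as the expected number over all draws of 50000 reads, at 0.0995 and 0.0961. Over all draws the 3BKO difference from WT at day 3 was 0.0601. At day 6 the thinned means were 0.20, 0.75, 0.155, 0.817 and 0.806 in the same order, so that neither genotype stood apart from WT. At day 8 they were 0.806 in 3A38, 0.667 in 3B126, 0.825 in 3B77 and 0.494 in WT. The 3BKO clones were 0.25 isoforms per cell above WT at day 8, and 0.38 above it without the library labelled 3B77 day 8 and WT plate C344, when 1 library stood on each side. The difference was 0.113 as the expected number over all draws and 0.123 after thinning to 100000 reads, 0.134 with 3 reads as the detection limit and 0.111 over beta genes. The 3AKO clone 3A38 was 0.31 above WT at day 8, 0.52 above it without the doubted libraries and 0.121 above it after thinning to 100000 reads. No test was run, as WT was a single line. The pooled SD between clones of 1 genotype was 0.281 over 5 pairs of clones, which was larger than the differences from WT at day 3 and than the 3BKO difference at day 8 as labelled. The 3BKO difference at day 8 without the doubted libraries exceeded it. The differences at day 6, −0.32 for 3BKO and −0.331 for 3AKO, also exceeded it in size, with knockouts below WT. In each genotype 1 clone lay close to WT at that day. The 3AKO difference at day 8, from 1 clone, exceeded that SD as labelled and without the doubted libraries. It also did so with 3 reads as the detection limit (0.2865) and over beta genes (0.495). It did not after thinning to 100000 reads, without thinning (0.213) or as the expected number over all draws (0.231). That SD describes single clones, and a difference between single libraries varies more.

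Averaged over clones, beta and gamma isoforms followed different courses between day 6 and day 8, but not in every clone. As labelled, beta means rose and gamma means fell in 3A38 and 3B77, while both rose in 3B126 and both fell in WT. Gamma isoforms were present from day 3 on, with unthinned means of 0.464, 0.243, 0.151, 0.43 and 0.122 per cell in 3A2, 3A38, 3B126, 3B77 and WT, against beta means of 0.0145, 0.114, 0.0685, 0.0253 and 0.0811 in the same cells. At day 6 the gamma means were 0.4375, 0.819, 0.241, 1.32 and 0.776, and the beta means 0.025, 0.694, 0.121, 0.183 and 0.343. At day 8, 3A38 had the most beta isoforms (0.875) and the fewest gamma isoforms (0.139), while 3B126, 3B77 and WT had 0.412, 0.575 and 0.315 beta and 0.588, 0.65 and 0.506 gamma isoforms. The gamma isoforms of WT at day 8 came almost wholly from plate C344, with 0.647 per cell, against 0.0476 on plate C343. Over all 21 beta genes, the share of positive cells averaged over clones was higher at day 8 than at day 3 for 21, and for 20 without the library labelled 3B77 day 8 and WT plate C344. Over all 21 gamma isoforms it was higher at day 8 than at day 3 for 17, and for 12 without them. Of all 36849 genes, 32.15% were higher at day 8 than at day 3 by the same measure. These averages include 3A2 at days 3 and 6 but not at day 8. Over the 4 clones sampled at all 3 days, 20 beta genes and 19 gamma isoforms were higher at day 8 than at day 3, beside 34.4% of all genes. Beta and gamma were thus alike in that comparison. Between day 6 and day 8 the share was higher at day 8 for 17 beta genes and lower at day 8 for 17 gamma isoforms. The counts were 16 and 20 without the library and plate in doubt, and 17 and 15 over the 4 clones sampled at all 3 days. Of all genes, 26.75% were higher at day 8 than at day 6 and 22995 of 36849 were lower. Lower were 23584 without the library and plate in doubt and 22496 over the 4 clones sampled at all 3 days. A lower share at day 8 was thus also the more common change over all genes.

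**Figure D3:**
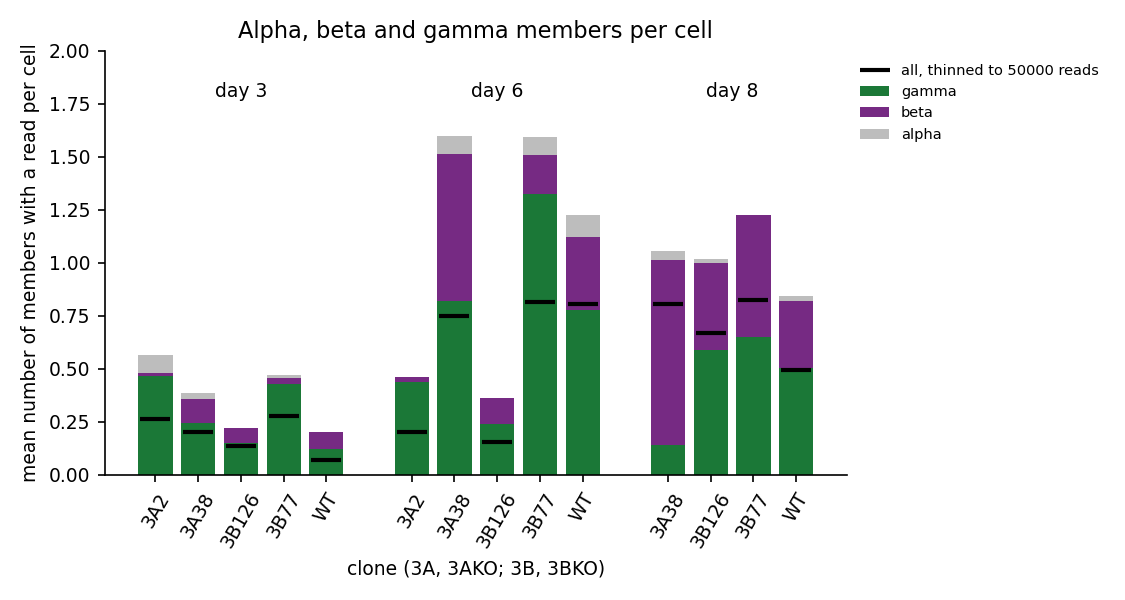
Mean number of alpha, beta and gamma members with a read per cell (stacked bars, y axis) by day and clone (x axis, knockout clones left of WT), with a line at the mean of all members after thinning each cell to 50000 reads. Cells of 3B77 at day 6 held 1.32 gamma and 0.183 beta isoforms, and cells of 3A38 at day 8 held 0.139 gamma and 0.875 beta isoforms.

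Positive cells mostly differed in which isoform was read in them. Detection lay close to its floor, and members missed in a cell lower the sharing between cells. How far that accounts for the values below was not tested. Of the 430 positive cells, 249 (57.9%) held a single member, 241 held gamma isoforms only, 88 held beta genes only and 76 held both. The 181 cells with at least 2 members held 169 different combinations. Of these, 157 were seen in 1 cell and none in more than 2 cells. Pairs of positive cells from the same library shared at least 1 member in 13.9% of 7501 pairs, between 4.29% in 3B126 at day 6 and 21.3% in 3A38 at day 6. The most frequent member of a library was found in 15.4 to 38.5% of its positive cells. Only gamma-A isoforms led 6 libraries and only Pcdhb6 or Pcdhb22 led 5. The other 3 had ties, between Pcdhb6 and Pcdhga1 in 3A38 at day 3, Pcdhga2 and Pcdhgc3 in 3B77 at day 6 and Pcdhb16 and Pcdhga6 in the library labelled 3B77 day 8. In cells with at least 2 members the leading one held a median of 71.4% of the member reads of the cell, and over 50% in 134 of 181 cells. These are shares of amplified reads, not of molecules. The pairs of members read together most often were Pcdhb22 with Pcdhga2 and Pcdhb22 with Pcdhga5, in 7 cells each.

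Cells that held more than 1 member were uneven across libraries. They made up 45.8% of 3A38 and 45.1% of 3B77 cells at day 6 and 31.3% of WT cells, but 0 of 58 cells of 3B126 and 11.3% of 3A2 cells at the same day. The count for 3B126 allows a share of up to 5.17%, at the highest median depth of any library (500200 reads per cell). Cells were also ranked by reads within their library and split into 4 groups of like size. From the group with fewest reads (median 99070) to that with most (median 714500) the unthinned means were 0.687, 0.829, 0.797 and 0.815 members per cell, and the thinned means 0.52, 0.471, 0.373 and 0.4115.

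Cell classes were defined by clustering without the 52 members. Neural progenitor-like cells (88 cells, led by Crabp1, Fabp7 and Crabp2) held 1.67 ± 1.51 isoforms per cell (SD over cells), endothelium-like cells (93, led by Emcn) 1.46 ± 1.39, neuron-like cells (118, with Nefl, Dcx and Snap25) 1.37 ± 1.495, mesenchyme-like cells (76, led by Col3a1 and Lum) 1.01 ± 1.25, epiblast-like cells (173, with Utf1 and Dnmt3b) 0.624 ± 0.858 and blood-like cells (37, led by embryonic haemoglobin genes) 0.135 ± 0.347. The clusters led by the pluripotency genes Dppa5a and Zfp42 or by small RNA genes, numbered 1, 2 and 3, held 0.364, 0.231 and 0.336. After thinning the order of the 6 classes was the same, at 0.92, 0.817, 0.898, 0.697, 0.301 and 0.027 in the order above, except that neuron-like cells lay above endothelium-like cells. These cells were pooled over clones and days, and no test between classes was made. Without the library labelled 3B77 day 8 and WT plate C344 the thinned means were 0.986 in neural progenitor-like, 0.861 in endothelium-like and 0.826 in neuron-like cells. They were 0.50 in mesenchyme-like, 0.301 in epiblast-like and 0.04 in blood-like cells. In blood-like cells beta genes were read in 0 of 37 cells, which allows a share of up to 8.11%.

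The balance of beta and gamma also differed between classes. Endothelium-like cells held 1.04 gamma and 0.387 beta isoforms, neural progenitor-like cells 0.977 and 0.636, neuron-like cells 0.576 and 0.712, mesenchyme-like cells 0.421 and 0.566 and epiblast-like cells 0.462 and 0.11. Of the 118 neuron-like cells 41 were 3A38 at day 8, with 0.122 gamma and 1.24 beta isoforms. Neuron-like cells of 3B126 at day 8 held 0.40 and 0.467, but those of 3B77 and WT at day 6 held more gamma than beta. Without integration over batches 63 of 66 neuron-like cells were 3A38 at day 8. Class and library cannot be told apart there. Pcdhb22 led endothelium-like cells (14 of 93) and mesenchyme-like cells (9 of 76), Pcdhga2 led neural progenitor-like cells (12 of 88), and Pcdhb6, Pcdhb16 and Pcdhb21 shared the lead in neuron-like cells (11 of 118 each). Pcdhgc3 ranked second in endothelium-like cells, where it was read in 10 of 93.

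Within 1 class the clones still differed. Neuron-like cells of 3A38 at day 8 held 1.24 beta and 0.122 gamma isoforms (41 cells), those of 3B126 at day 8 0.467 and 0.40 (15 cells), those of 3B77 at day 6 0.276 and 0.966 (29 cells) and those of WT at day 6 0.357 and 1 (14 cells). These 4 groups differ in day and batch as well as in genotype, and their median cells held 450600, 179900, 279200 and 227300 reads. Neural progenitor-like cells of 3B126 and WT at day 8, which share batch and day, held 1.44 and 1.17 isoforms (18 cells each), with gamma means of 0.833 in both and beta means of 0.611 and 0.333. All 18 of these WT cells came from plate C344. With 1 library on each side, this difference has no replicate check. Endothelium-like cells at day 6 held 0.944 isoforms in 3A2, 2.125 in 3A38 and 1.47 in WT (18, 24 and 15 cells). Epiblast-like cells at day 6 held 0.405 in 3B126, 1.9 in 3B77 and 0.80 in WT (42, 10 and 20 cells). Membership of that class at day 6 depended on integration over batches.

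The clones with few isoforms at day 6 were those with few cells of the differentiated classes. At day 6, 42 of the 58 cells of 3B126 were epiblast-like and 60 of the 80 cells of 3A2 fell in cluster 2, against 20 and 1 of 67 WT cells. Their part in the clone means was not tested. Epiblast-like cells of 3B126 themselves held fewer isoforms than those of 3B77 at that day, at median depths of 500200 and 385800 reads. The epiblast-like label at day 6 depended on integration over batches. Without it, 59 of the 78 epiblast-like cells were 3A38 and 18 were 3A2, all at day 3. At day 6, 50 cells of 3B126, 62 of 3B77 and 33 of WT then fell in 1 unnamed cluster, with 0.36, 1.66 and 1.0 isoforms per cell.

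**Figure D4:**
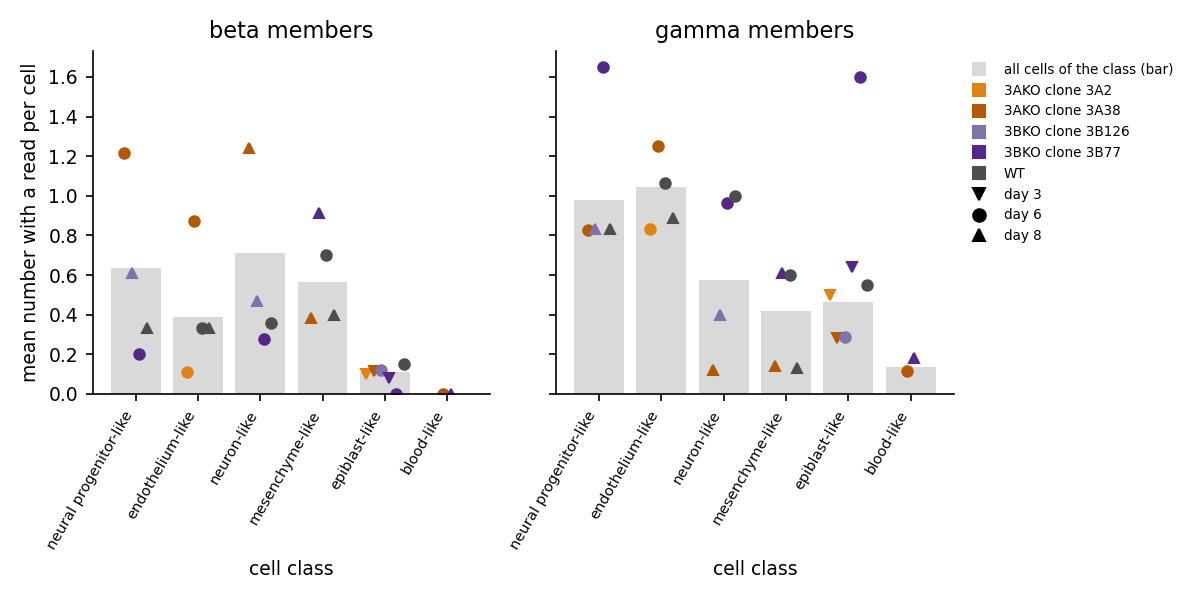
Mean number of beta (left) and gamma (right) members with a read per cell (y axis) in each cell class (x axis), as bars for all cells of a class and points for each clone and day with at least 10 cells of it, shifted sideways for legibility. Neuron-like cells of 3A38 at day 8 held 1.24 beta and 0.122 gamma isoforms, and blood-like cells held no beta isoform.

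Levels summed per clone and day were compared with edgeR's quasi-likelihood test over 24083 genes. Of the 52 members 42 passed the filter on low counts and 10 did not. None of the 42 reached an adjusted p (Benjamini-Hochberg) below 0.05 in 3BKO or 3AKO against WT at any day. All genes gave the same count, with 0% called in each of the 6 contrasts. At an unadjusted p below 0.05, 1, 4 and 0 members in 3BKO and 1, 1 and 4 in 3AKO were found at days 3, 6 and 8, and 753, 448 and 381 of all genes in 3BKO and 1835, 341 and 1364 in 3AKO. DESeq2 called no member in any of these contrasts, although it called 1582 genes over them. A WT group of 1 library limits these tests, and 3AKO at day 8 was 1 library too.

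The members with the largest fitted changes rested on few cells. Each was compared with a group in which no read was found, so that its fitted log2 fold change depends on the prior count, and a bound was computed against 3 reads over that group. In the 3BKO clones of day 3, Pcdhgb1 had 11.97 CPM (3B126) and 0.199 CPM (3B77), against 0 CPM in WT, at least 30.5-fold higher in 3BKO (log2 fold change 10.32 ± 5.20 SE, edgeR adjusted p = 1), with 213 of its 219 reads in 1 cell. At day 6 Pcdhga1 had 4.26 and 0.671 CPM in these clones and 0 CPM in WT (9.02 ± 4.31, edgeR adjusted p = 1), with 113 of 133 reads in 1 cell. Pcdha9 had 0 CPM in all knockout clones at day 6 and 2.31 CPM in WT, where 45 of its 47 reads were in 1 cell. It was at least 43.4-fold lower in 3BKO and at least 53.9-fold lower in 3AKO.

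Pcdhb6 gave the largest difference at day 8. It had 43.8 CPM in 3A38, 7.23 CPM in 3B126 and 0.0861 CPM in 3B77, and 0 CPM in WT. That was at least 320.7-fold higher in 3AKO (13.17 ± 5.72, edgeR p = 0.0426, adjusted p = 0.816) and at least 32.2-fold higher in 3BKO (9.59 ± 5.21, edgeR adjusted p = 1). In 3A38 its 1586 reads came from 9 of 72 cells, 1 of which held 51.2% of them. Both bounds use WT as labelled, with 68 of its 89 cells from the doubted plate C344, and were not computed without it. Pcdhb6 was also the member with the largest positive value in 3AKO at day 3, but 3A2 had 0 CPM, 3A38 6.72 CPM and WT 0 CPM there. The other members that the same ranking gave were each read in 1 to 3 cells. They were Pcdhga8 (higher in 3AKO at day 6, 3 cells), Pcdhgb8 (lower in 3AKO at day 8, 3 WT cells), Pcdhb16 (lower in 3AKO at day 3, 2 WT cells), Pcdhb2 (lower in 3BKO at day 8, 2 WT cells) and Pcdhgb4 (lower in 3BKO at day 3, 1 WT cell), with edgeR adjusted p between 0.635 and 1.

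Between days, averaged over the 3 genotypes, no member was called either, and 9 of all genes (0.0374%) were called at day 6 against day 3, 198 (0.822%) at day 8 against day 3 and 0% at day 8 against day 6. With clone as a replicate block 67, 394 and 5 genes were called in these contrasts. At an unadjusted p below 0.05 edgeR found 7, 7 and 4 members in these contrasts, and 2786, 3925 and 1347 of all genes. DESeq2 called 0, 4 and 1 of the 42 members, beside 1428, 2736 and 330 of all 24083 genes. The beta genes came closest. Pcdhb14 had 0, 0, 0, 0 and 0.0499 CPM in 3A2, 3A38, 3B126, 3B77 and WT at day 3, 0, 2.87, 0, 0 and 0 CPM at day 6, and 10.99, 16.9, 6.03 and 0.501 CPM in 3A38, 3B126, 3B77 and WT at day 8. As labelled, all 4 clones of day 8 lay above all 5 of day 3 (log2 fold change 8.54 ± 2.13 SE, edgeR p = 0.0016, adjusted p = 0.0777). With clone as a replicate block it was called (8.12). At day 8 it was read in 1 cell of 3B126, and in WT in 1 cell of the doubted plate C344 and 0 cells of C343. Without plate C344 the WT library of day 8 thus no longer lay above day 3, and the same holds for Pcdhb16, with 2 cells on C344 and 0 on C343. Pcdhb16 had 0, 0, 0, 0.0663 and 0.349 CPM at day 3, 0, 0.12, 0, 0.134 and 0 CPM at day 6, and 17.1, 1.98, 2.50 and 1.91 CPM at day 8 (6.66 ± 1.82, edgeR adjusted p = 0.0906).

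Pcdhb19 had no read in 365 cells of day 3. It had 3.97 CPM in 3A38 and 0 CPM in the other clones at day 6, and 8.78, 0.339, 1.55 and 3.32 CPM in 3A38, 3B126, 3B77 and WT at day 8, at least 211.8-fold higher at day 8 than at day 3 (9.31 ± 2.56, edgeR adjusted p = 0.101). One cell held 60.2% of its day 8 reads. Pcdhb22 and Pcdhga6, called at day 8 against day 3 by DESeq2 with Pcdhb16 and Pcdhb19, had edgeR adjusted p = 0.271 and 0.176. Pcdhb22 overlapped between days, since 3B126 had 0 CPM at day 8 and WT 0.299 CPM at day 3. Pcdhb21 had no read at day 3 and 0, 2.35, 0, 0.0671 and 5.85 CPM at day 6 (7.09 ± 2.14, edgeR adjusted p = 0.245). Without the library labelled 3B77 day 8 and WT plate C344, 1 member and not 7 was below an unadjusted p of 0.05 at day 8 against day 3.

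**Figure D5:**
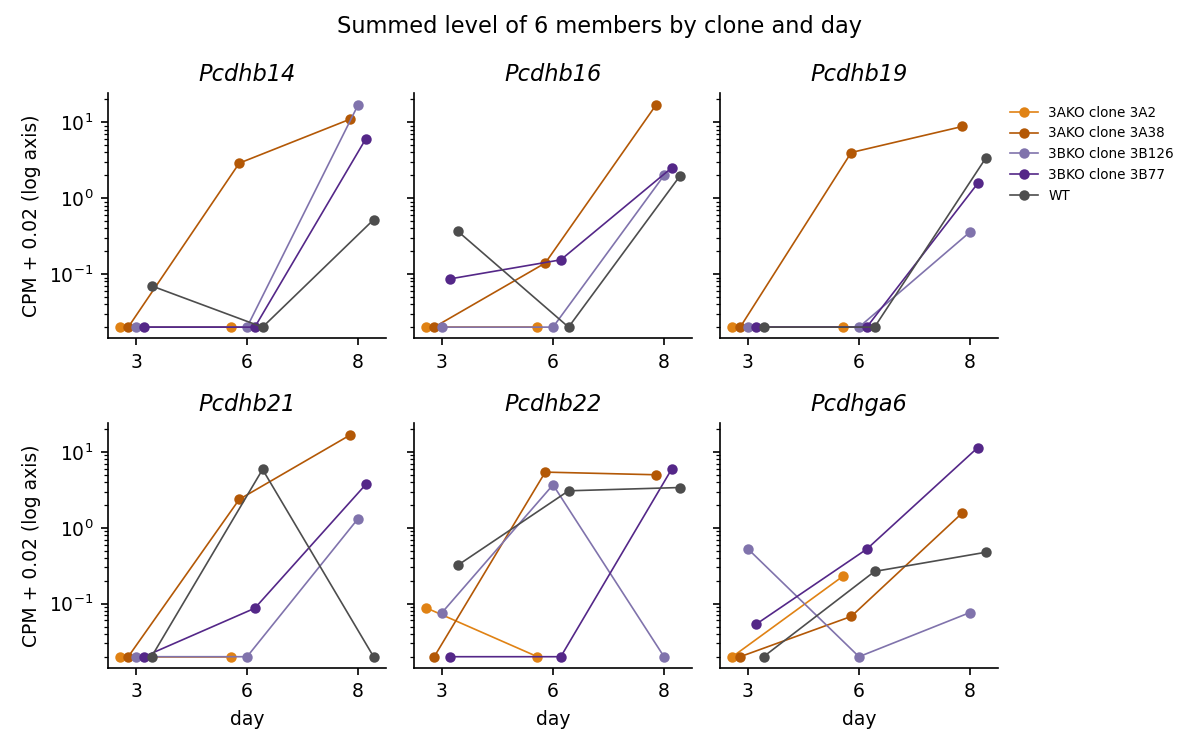
Summed level (y axis, CPM + 0.02, log axis) of 6 members by clone and day (x axis, days 3, 6 and 8), with a point for every library, shifted sideways for legibility, and lines joining the days of a clone. Pcdhb14, Pcdhb16 and Pcdhb19 lay higher in all 4 clones at day 8 than in any clone at day 3, and Pcdhb21 and Pcdhb22 did not. The WT reads of Pcdhb14 and Pcdhb16 at day 8 came from plate C344 alone, whose label is in doubt.

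Non-clustered protocadherins, which are adhesion molecules encoded outside the clusters, and regulators of the clusters were read for comparison. Of 12 non-clustered genes 11 were tested, and Pcdh7 was called. It had 0.203, 0.713, 0.674, 0 and 0.748 CPM in 3A2, 3A38, 3B126, 3B77 and WT at day 3, and 61.75, 13.0, 28.85 and 37.4 CPM in 3A38, 3B126, 3B77 and WT at day 8 (log2 fold change 6.23 ± 1.12 SE, edgeR adjusted p = 0.0212). All clones of day 8 lay above all of day 3. Pcdh18 and Pcdh8 were the most abundant of the list in CPM, with means of 33.3 and 16.1 CPM over the 14 libraries, and no genotype contrast called any of the 11. The median log2 fold change of the 11 genes at day 8 against day 3 was 2.68, beside −0.01 over all genes.

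Of 21 regulators, all tested, Dnmt3a and Dnmt3b were called lower at day 8 than at day 3 and none in the other contrasts. Dnmt3b, the de novo methyltransferase deleted in 3BKO, had 228, 283, 31.1, 30.6 and 334.2 CPM at day 3 and 0.801, 3.44, 4.65 and 3.32 CPM in 3A38, 3B126, 3B77 and WT at day 8 (−5.96 ± 0.87, edgeR adjusted p = 0.0086). Dnmt3a had 22.4, 12.9, 224, 133 and 165.5 CPM at day 3 and 1.10, 19.8, 21.9 and 36.4 CPM at day 8 (−3.09 ± 0.57, edgeR adjusted p = 0.022). Both lay on the side of their labels at day 3. The cohesin subunit Smc3 and the cohesin release factor Wapl were the most abundant, with means of 291.8 and 289.0 CPM. Smchd1, a repressor of the clusters, had between 69.5 and 316.9 CPM. The median log2 fold change of the list at day 8 against day 3 was −0.49.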

How the data were processed

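Single cells had been sorted into plates and amplified with a modified Smart-seq2 protocol without molecular identifiers. The authors trimmed reads (Trim Galore 0.5.0, FastQC 0.11.2), aligned them to mm10/GRCm38 (STAR 2.7.1a) and deposited raw read counts per gene name and cell (featureCounts 1.6.1). Whether strand was used is not stated. Countable bases were taken from GENCODE M21, while the authors counted on another release. Members and lists were chosen with earlier results of these data known. Named were the most often detected members of each set, all C-type isoforms and those with the largest fitted change per genotype contrast and direction, and, chosen after their values were seen, 6 of the members called between days under an alternative.

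Cells were thinned once to 50000 reads (seed 1). Counts were summed per clone and day (14 libraries) and fitted with 1 mean per genotype and day in edgeR 4.0.16 (TMM, filterByExpr, quasi-likelihood test, Benjamini-Hochberg threshold 0.05, 5 residual degrees of freedom). The fit joins a pair of clones per knockout group, so p-values measure the spread between clones. CPM are TMM-scaled. Classes came from Seurat 5.3.0 clusters of cells integrated over batches, without the members, named from fixed marker lists; no doublet caller was run, as cells were sorted singly. Alternatives were DESeq2 1.42.0, other filters and thinning, left-out clones and a clone block. Clones pair the days, as each clone is 1 line; deviations of same-clone libraries from their group means correlated by −0.000718 to 0.155. The statistical steps were run on simulated counts, with changes placed only in genes with many reads. Their dispersion (spread between libraries) was set lower than the 0.932 of these data. That run does not show how well changes in members with few reads are found.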

Additional observations from a re-analysis of the deposited data

Results flagged for a closer look

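Between day 6 and day 8 the mean number of isoforms per cell, after 1 random draw of 50000 reads, was higher at day 8 in every knockout clone sampled at both days and lower at day 8 in WT. The changes were 0.0556 in 3A38, 0.512 in 3B126 and 0.0081 in 3B77, against −0.312 in WT. They were noted because the genotypes moved in opposite directions in this draw. As the expected number over all draws the changes were −0.0538 in 3A38, 0.445 in 3B126, −0.0325 in 3B77 and −0.177 in WT, and without thinning −0.541, 0.658, −0.367 and −0.381, so that under both countings only 3B126 was higher at day 8. The difference was not tested, since WT was 1 line, and 3B77 and WT at day 8 include the library and the plate whose labels are in doubt.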

How the results depend on the processing

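The tests over genes were sensitive to most settings. The 0 genes called over the 6 genotype contrasts became 1582 with DESeq2, 393 without a filter on low counts and 42 when WT plate C344 and the library labelled 3B77 day 8 were left out, and 0 to 140 with 1 knockout clone left out (140 without 3A2, 12 without 3A38, which gave 5 of the contrasts, 3 without 3B77). No member was called in a genotype contrast under any alternative that could be fitted. As a percent of the genes tested, the 0.0374% called at day 6 against day 3 became 0.0208% with DESeq2's size factors, 5.93% with DESeq2, 2.27% unfiltered and 0.177% without the doubted library and plate, and ranged between 0.00432% (without 3B126) and 2.37% (without 3A2) with 1 clone left out. The 0.822% called at day 8 against day 3 became 11.4%, 4.36% and 3.36% with DESeq2, unfiltered and without the doubted library and plate, and 0.461% (without WT) to 4.49% (without 3A2) with 1 clone left out. The 0% called at day 8 against day 6 became 1.37% with DESeq2, 0.561% unfiltered and 0 to 0.538% with 1 clone left out. With clone as a replicate block the 3 day contrasts called 0.278%, 1.64% and 0.0208% of genes, and 0, 1 and 0 members (Pcdhb14).

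Members called between days were 1 unfiltered at day 6 against day 3 (Pcdhb21), 4 with DESeq2 and 7 unfiltered at day 8 against day 3 (Pcdhb18 and Pcdhb20 only there), and 1 with DESeq2 and 2 unfiltered at day 8 against day 6. Leaving out 1 clone gave 0 to 1, 0 to 4 and 0 members in these contrasts, with 1 and 4 only without 3A2. Of 152 refitted log2 values of the named members 150 kept their direction, 16 passed the threshold and 2 were 0, with no read left in either group: Pcdhb2 in 3BKO at day 8 without the doubted library and plate, and Pcdhb6 in 3AKO at day 3 without 3A38. In the genotype contrasts, and for Pcdhb19 and Pcdhb21, 1 group had no read, so that the direction could not reverse. The members were also chosen for their fitted changes or for being called under an alternative. These counts are therefore no check of robustness.

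The 3BKO difference in isoforms per cell at day 6, −0.32, ranged between −0.651 without 3B77 and 0.0109 without 3B126, and the 3AKO difference, −0.331, between −0.606 and −0.056 with 1 clone left out and was −0.0319 over the beta genes alone. The 3BKO difference at day 3, 0.14, was 0.0601 as the exact expected number over all draws of reads, 0.0236 after thinning to 100000 reads, 0.0392 with 3 reads as the detection limit and −0.021 over beta genes. The 3AKO difference at day 3, 0.163, was 0.199 at 100000 reads, 0.0438 with 3 reads and 0.0167 over beta genes. The expected number, the leaving out of doubted libraries by class and the 3-read limit for shared members were added after seeing the data. Leaving out WT allows no genotype contrast, and endothelium-like cells formed no named cluster without integration. The epiblast-like cluster then held mostly day 3 cells of 3AKO clones, and the neuron-like cluster mostly cells of 3A38 at day 8. The cause of these changes was not tested.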
